A study of Mus musculus with 16 samples.

Results

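Polysome-associated mRNA was compared with cytosolic mRNA in activated CD4+ Foxp3- T cells, across all genes on the array. The comparison rests on 4 of the 16 arrays of the series, chosen by their titles: arrays 10 and 12 hold polysome-associated RNA and arrays 9 and 11 hold cytoplasmic RNA. It covers 16475 genes, which were grouped into 61 lists of genes with a shared function, complex, name or cell type.

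Lymph node and spleen cells of female Foxp3-GFP reporter knock-in mice on the C57BL/6 strain, 6 to 12 weeks old, were sorted for CD4 and absence of GFP (Foxp3-). They were activated in vitro for 36 h on plate-bound CD3 and CD28 antibodies at 5 µg/ml each with 100 U/ml recombinant human IL-2, and cycloheximide, which holds ribosomes on mRNA, was added at the end of the culture. The groups set beside them were CD4+ Foxp3- cells of the same mouse line taken directly ex vivo (polysome arrays 4 and 8, cytosolic arrays 3 and 7, RNA of 2 experiments pooled in each sample) and Foxp3+ cells activated in the same way (polysome arrays 14 and 16, cytosolic arrays 13 and 15). Each group had 2 arrays, which the study's methods call biological duplicates. The scan file names in the labels put ex vivo, activated Foxp3- and activated Foxp3+ arrays in 3 separate series, so that both fractions of a group were in the same series but the groups cannot be told apart from it.

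Ribosomes are recruited to an mRNA one after another, and an mRNA that carries several of them sediments deep into a sucrose gradient. The polysome-associated sample was the pooled fractions with at least 3 ribosomes per mRNA, whereas the cytosolic sample held all mRNA of the cytoplasmic extract, ribosome-bound or not. A gene with a higher value in the polysome sample therefore has a larger share of its mRNA on polysomes than the average gene has, and a gene with a lower value a smaller share. T cells leaving quiescence raise protein synthesis before they divide, and the initiation factor eIF4E, which binds the mRNA cap, is one of the proteins known to limit that step. The values were log2 intensities that the authors normalized between arrays, so a shift of all mRNAs onto polysomes would not be seen in them. RNA was taken from bulk cells, so an mRNA held by fewer cells and less of it per cell cannot be told apart.

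The 2 arrays of a fraction were closer to each other than to the other fraction. Over all genes the Pearson correlation was 0.945 between the polysome arrays and 0.941 between the cytosolic arrays, against 0.916 to 0.921 across the fractions, and these are correlations across genes, which are not independent replicates. The SD of the log2 difference of a gene was 0.76 between the polysome arrays and 0.78 between the cytosolic arrays, against 0.91 to 0.93 across fractions. The differences between 3' and 5' control probe sets, a sign of RNA integrity, were alike on all 4 arrays: -0.30 and -0.28 in polysome RNA and -0.20 and -0.36 in cytosolic RNA for actin, and 1.21 and 1.14 in polysome RNA against 1.19 and 1.20 in cytosolic RNA for Gapdh. As a check of the sort, Foxp3 itself read 6.85 and 5.26 in polysome and 5.28 and 5.86 in cytosolic RNA, below the 9.42 to 10.76 of activated Foxp3+ cells, and above the 3.74 to 4.74 of ex vivo Foxp3- cells.

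In polysomes of activated Foxp3- cells 389 genes were higher and 250 lower than in cytosolic mRNA (limma over all 16 arrays, adjusted p under 0.05). These are 2.36% and 1.52% of the 16475 genes tested, and the 2 polysome arrays did not overlap the 2 cytosolic arrays for any of them. Without a test, 578 genes (3.51%) were over 3-fold higher and 259 (1.57%) over 3-fold lower by group means. Between single arrays, 903 genes were over 3-fold apart for the 2 polysome arrays and 946 for the 2 cytosolic arrays. Across fractions such pairs gave 1437 to 1508. With no overlap of the arrays, 2830 genes (17.2%) were higher and 4636 (28.1%) lower. With 2 arrays against 2, non-overlap is frequent even without a difference, so it does not mark a gene as different. The median difference of all genes was -0.11. After cyclic loess between arrays, which moved that median to 0.007, the split of calls was 487 higher and 177 lower. Called genes that were higher had a median log2 level of 7.37 in polysomes and 5.06 in the cytosol, and called genes that were lower had 6.01 in polysomes and 7.87 in the cytosol. Levels and differences are on the log2 scale throughout, and a difference is polysome minus cytosolic. Of the genes called higher, 172 had a cytosolic mean below the medians of both cytosolic arrays.

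The calls depend on the pooled estimate of the spread. With only the 4 arrays of activated Foxp3- cells, which leave 2 residual degrees of freedom, limma called 0 genes in either direction (2078 at an unadjusted p under 0.05), and with the 8 arrays of activated cells also 0 (1626). With a weight for each group, estimated by limma at 0.63 for the polysome and 0.53 for the cytosolic arrays against 2.43 and 2.97 for ex vivo Foxp3- cells, 150 were higher and 87 lower, of which 148 and 87 were called in both fits. When each of the 4 arrays was left out in turn, 83 of the 389 and 63 of the 250 kept their call every time. Without array 11 the genes called higher numbered 219, and without array 12 those called lower numbered 165. Below, a gene is called stable where it was called in all 4 of these fits. Each of them leaves 1 of the compared groups with a single array, which adds nothing to the estimate of the spread. The median SD was 0.332 or 0.336 in these fits, against 0.349 with all arrays. A stable call therefore does not test how far the call depends on the pooled spread.

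**Figure D1:**
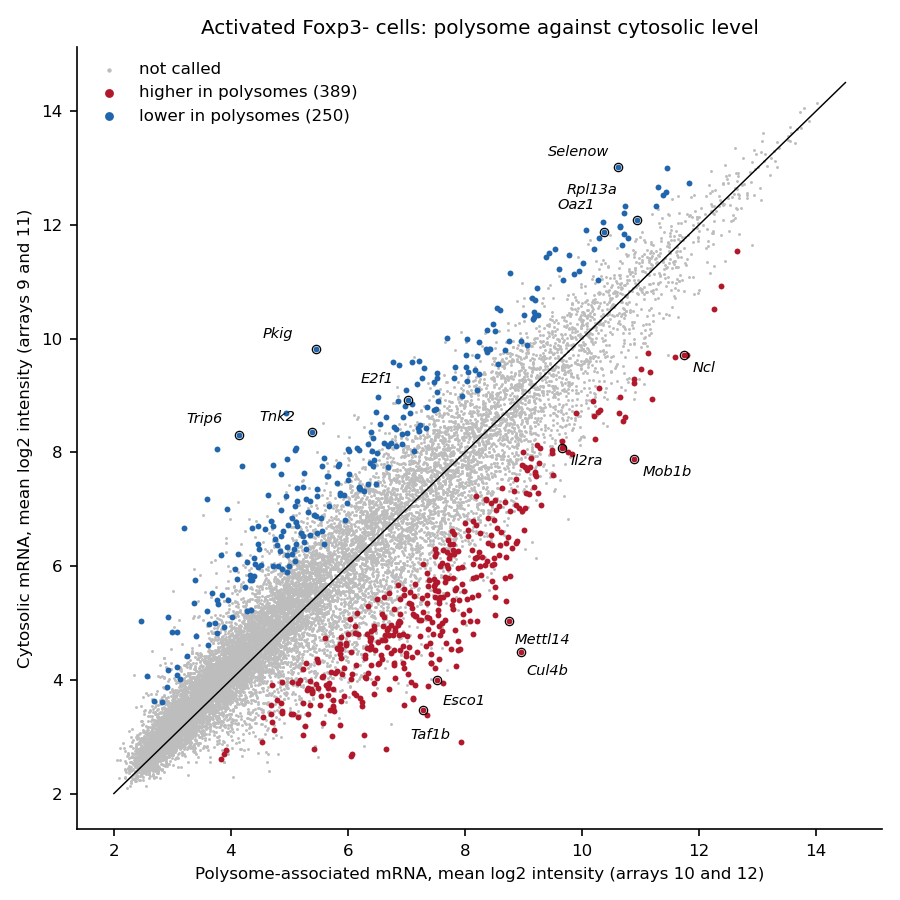
Mean log2 intensity of each gene in polysome-associated mRNA (horizontal axis, arrays 10 and 12) and cytosolic mRNA (vertical axis, arrays 9 and 11) of activated Foxp3- cells; the line marks equal levels and circles mark named genes. The 389 genes called higher in polysomes lie to the right of the line, many of them at low cytosolic levels, and the 250 called lower lie to the left of it with Selenow at a cytosolic level of 13.01.

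Among genes with a level over 8 in the higher fraction, the largest difference in favour of polysomes was that of Cul4b, the scaffold of a cullin-RING ubiquitin ligase that acts in replication and repair. Cul4b read 8.88 and 9.02 on the polysome arrays, against 3.98 and 5.005 on the cytosolic arrays, a difference of 4.46 (SE 0.37, limma adjusted p = 0.000305), or 22-fold. Mettl14, a subunit of the methyltransferase that writes N6-methyladenosine on mRNA, read 8.93 and 8.56 on the polysome arrays, against 4.83 and 5.23 on the cytosolic arrays (difference 3.71, SE 0.28). L3mbtl3, a chromatin protein that reads methylated lysine, read 8.97 and 8.05 on the polysome arrays, against 5.81 and 4.45 on the cytosolic arrays (difference 3.38). In all 3 the lowest polysome value was more than 2 log2 units above the highest cytosolic value.

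The other genes of this group with a stable call were Mob1b, an adaptor of the Hippo pathway kinases, with 10.73 and 11.04 in polysomes, against 8.34 and 7.42 in cytosolic mRNA (difference 3.01). Nasp, a histone chaperone, had 7.83 and 9.71 in polysomes, against 5.69 and 5.95 in cytosolic mRNA (difference 2.95). Tgs1, which trimethylates the cap of small nuclear RNAs, had 8.85 and 8.52 in polysomes, against 5.64 and 5.95 in cytosolic mRNA (difference 2.89). The 2 polysome values of Nasp lay about as far apart as the lower of them lay above the cytosolic values, whereas those of Mob1b and Tgs1 lay close together.

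The other 6 of the 12 largest were called over all arrays but not in every fit that left 1 out. They were Gimap8, a GTPase of lymphocytes (difference 3.33), Mto1, which modifies mitochondrial tRNA (3.32), Hipk3, a nuclear protein kinase (3.17), Topbp1, an activator of the ATR checkpoint kinase (3.07), Ncapg2, a subunit of condensin II (3.06), and Vps35, the core of the retromer sorting complex (2.88). Their calls ended without array 9, 10, 11 or 12 for Gimap8 (adjusted p up to 0.125), without array 9, 10, 11 or 12 for Mto1 (adjusted p up to 0.164) and without array 10 or 11 for Hipk3 (adjusted p up to 0.0623). They also ended without array 10 or 11 for Topbp1 (adjusted p up to 0.0619), without array 9 or 12 for Ncapg2 (adjusted p up to 0.0572) and without array 10, 11 or 12 for Vps35 (adjusted p up to 0.196). The 4 arrays of each of these 6 genes did not overlap between fractions, which the rule that chose the 12 largest required.

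Pkig, an inhibitor of cAMP-dependent protein kinase (PKA), had the largest difference toward the cytosol. It read 5.56 and 5.33 on the polysome arrays, against 10.17 and 9.45 on the cytosolic arrays (difference -4.36, SE 0.64, adjusted p = 0.00606), so cytosolic mRNA was 20.6-fold higher. Snora65, a small nucleolar RNA that guides modification of ribosomal RNA and codes for no protein, read 3.18 and 4.34 on the polysome arrays, against 7.22 and 8.91 on the cytosolic arrays (difference -4.30), and such RNAs lie in introns of host genes, with which probes could share sequence. Tnk2, a tyrosine kinase downstream of Cdc42, read 5.12 and 5.65 on the polysome arrays, against 8.50 and 8.21 on the cytosolic arrays (difference -2.97).

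Stable calls were also those of Kctd2, a partner of cullin 3, with 7.02 and 6.52 in polysomes, against 9.96 and 9.21 in cytosolic mRNA (difference -2.82), and of Slc25a33, a mitochondrial carrier of pyrimidine nucleotides, with 6.36 and 6.68 in polysomes, against 8.67 and 9.27 in cytosolic mRNA (-2.45). Selenow, a small selenoprotein whose mRNA needs recoding of a UGA codon, had 11.13 and 10.11 in polysomes, against 13.05 and 12.96 in cytosolic mRNA (-2.39).

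For the remaining 6 of these 12 genes the call over all arrays was not stable: Trip6, a LIM domain protein of focal adhesions (difference -4.17), Adipor1, an adiponectin receptor (-2.96), Tspan32, a tetraspanin of blood cells (-2.95), Hcfc1r1, a regulator of HCF-1 (-2.67), Metrn, a secreted factor (-2.50), and Polr2i, a subunit of RNA polymerase II (-2.32). The calls ended without array 10, 11 or 12 for Trip6 (adjusted p up to 0.0949), without array 11 or 12 for Adipor1 (adjusted p up to 0.105) and without array 9 or 12 for Tspan32 (adjusted p up to 0.0795). They also ended without array 10, 11 or 12 for Hcfc1r1 (adjusted p up to 0.13), without array 9 or 11 for Metrn (adjusted p up to 0.0528, difference -1.61 without array 12) and without array 9, 11 or 12 for Polr2i (adjusted p up to 0.0746). In the 24 genes together the SE ran 0.276 to 0.812 and the adjusted p 0.000147 to 0.0486, and with group weights 10 of the 12 higher and 11 of the 12 lower genes were called.

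**Figure D2:**
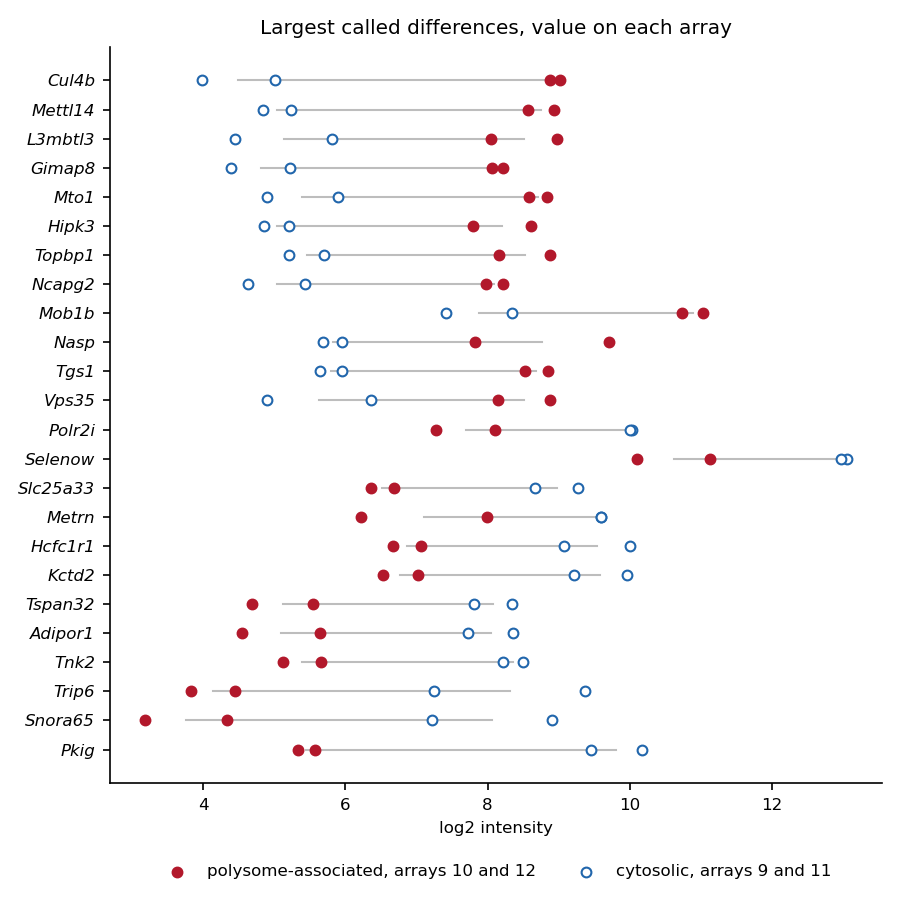
Log2 intensity of the 12 genes with the largest called difference in each direction, 1 row a gene; filled points are the polysome arrays 10 and 12, open points the cytosolic arrays 9 and 11, and grey lines join the group means. In each row the filled and open points are apart, as the rule that chose the genes required. The spread between 2 points of a kind is widest for Trip6 in the cytosol (7.25 and 9.37) and for Nasp in polysomes (7.83 and 9.71).

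The lists by function are ranked here by class median, with the lists of cell type markers left aside. The ranking did not follow 1 compartment of the cell: the mitochondrial citric acid cycle (0.39) lay above mitosis (0.36), and histones were among the lowest. The cohesin, condensin and anaphase-promoting complex list had the highest median, 0.77, against -0.11 for all genes. It was followed by the nuclear pore (0.70), mRNA decay (0.61), splicing factors (0.57) and ribosome biogenesis (0.54). The lowest medians were those of snoRNA host genes and long noncoding RNAs (-0.73), mitochondrial import (-0.54), the immediate early, NR4A, NF-kB and Myc genes (-0.39), histones (-0.31) and oxidative phosphorylation (-0.30). After cyclic loess these 10 class medians kept their sign, but that of oxidative phosphorylation shrank to -0.065, against 0.007 for all genes. Odorant and vomeronasal receptors, which T cells are not known to use and which serve as a background list, had a median of -0.13 with 0 of 65 genes called, close to all genes. Their median log2 level was 2.91 in polysomes and 3.01 in the cytosol, and the lower fraction of Ccnc, Dus4l, H3c15 and Zfp975, named below, averaged under that level, so that background limits their differences, which are lower bounds. Other genes named below had cytosolic means not far above it, so background may limit their differences too. Among them were Cenpe (3.24), Rnf170 (3.39), Taf1b (3.46), Zfp770 (3.47), Cep76 (3.56) and Usp9x (3.66). The lists share genes and were chosen with earlier results of these data known, so their counts are descriptions. Each count called is to be read beside the 2.36% higher and 1.52% lower of all genes, and those shares moved with level. In 5 bins of mean level over the 4 arrays, 0.091% were called higher in the lowest bin. In bin 4, at levels of 5.55 to 7.36, 5.43% were higher and 2.58% lower, and in bin 5 2.61% and 3.31%. The list shares were not adjusted for level.

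**Figure D3:**
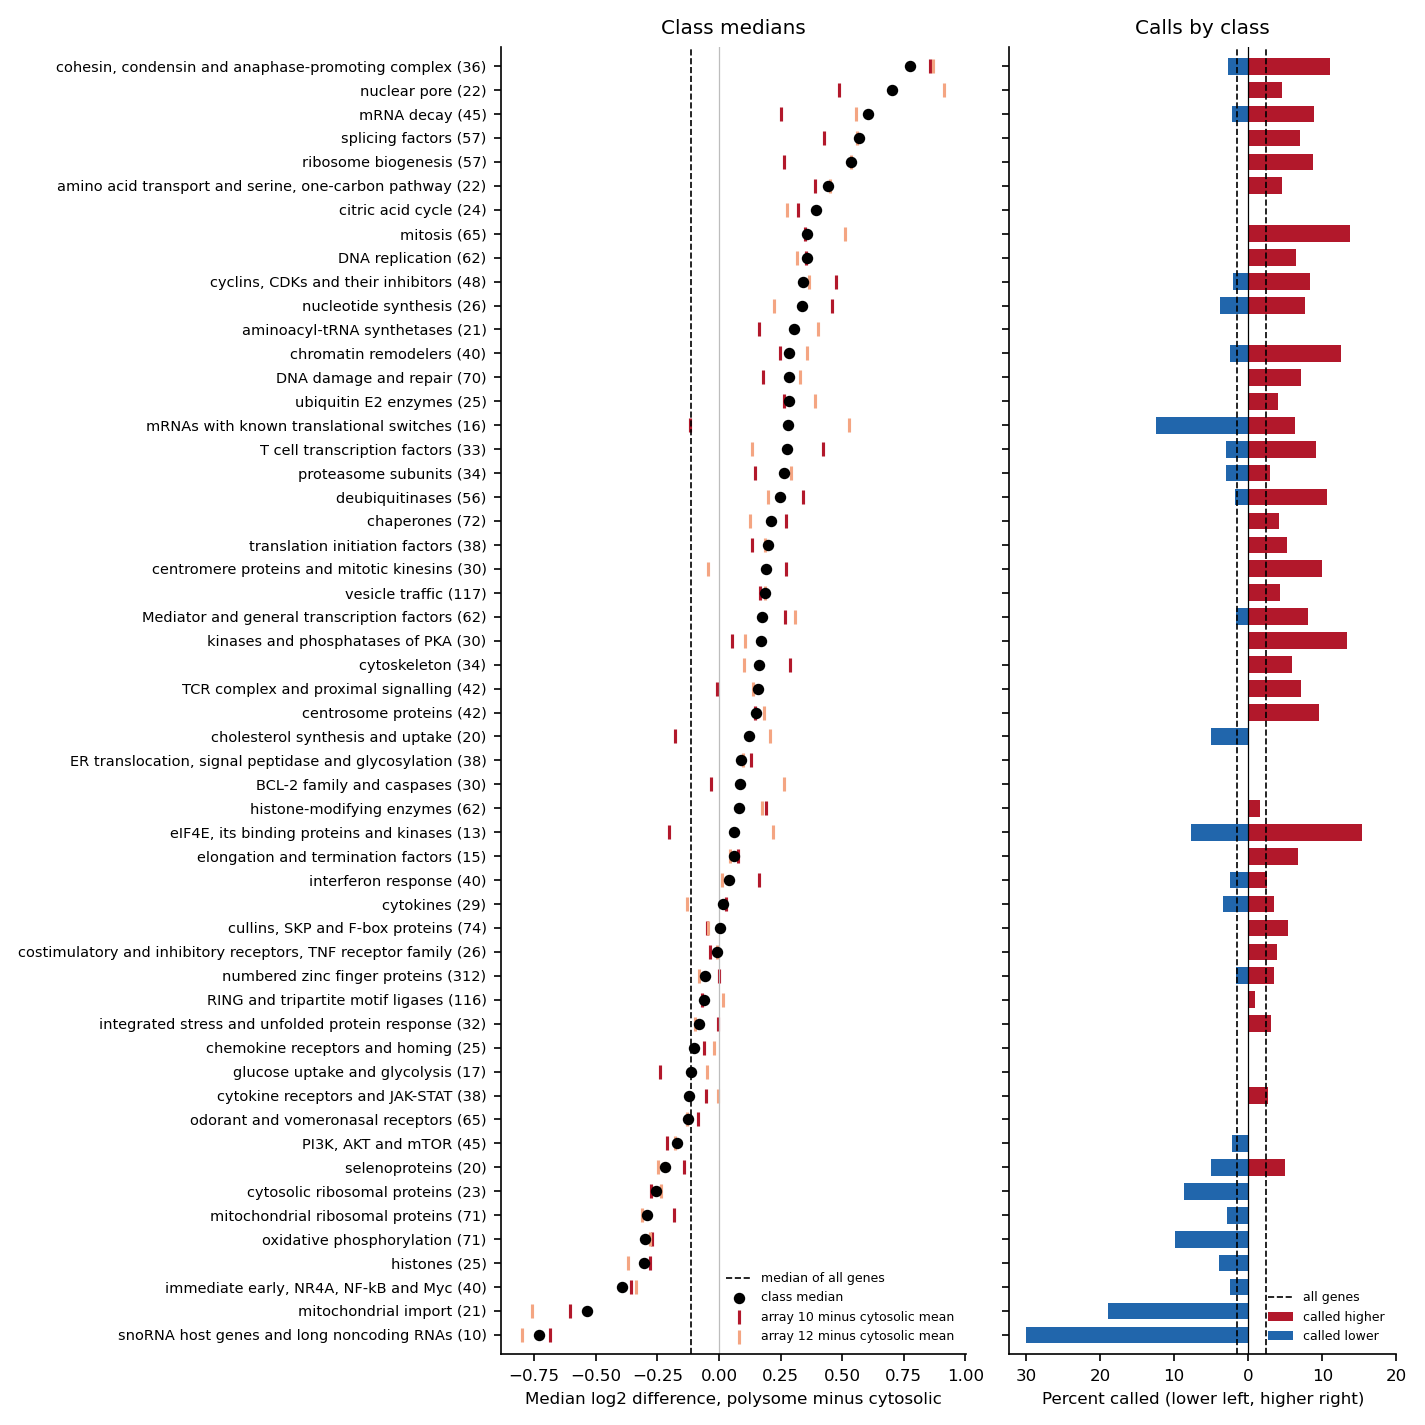
Each row is a list of genes (members in brackets), ordered by the median log2 difference, polysome minus cytosolic, in activated Foxp3- cells (left, black points; coloured ticks give array 10 and array 12 against the cytosolic mean). Bars at right give the percent of members called higher or lower, and dashed lines the median (-0.11) and percents (2.36 and 1.52) of all genes.

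Among the genes of the translation machinery the cap-binding protein was higher in polysomes. Eif4e, which recruits the small ribosomal subunit to capped mRNA, read 8.19 and 8.32 on the polysome arrays, against 6.87 and 6.29 on the cytosolic arrays (difference 1.68, SE 0.36, adjusted p = 0.0297), with no overlap of the fractions. Pdcd4, an inhibitor of the helicase eIF4A, read 10.45 and 10.93 on the polysome arrays, against 8.55 and 8.55 on the cytosolic arrays (2.14, adjusted p = 0.00986), and its call was stable. Mknk2, a kinase that phosphorylates eIF4E, was lower, with 9.27 and 9.06 in polysomes, against 10.44 and 10.24 in cytosolic mRNA (-1.18). The eIF4E repressors Eif4ebp1 and Eif4ebp2 did not pass the test: Eif4ebp1 differed by -0.39 (adjusted p = 0.647) and Eif4ebp2 by -1.09 (adjusted p = 0.527). In the list of eIF4E with its binding proteins and kinases 2 of 13 genes were higher and 1 lower. With group weights the adjusted p was 0.0641 for Eif4e, 0.0999 for Pdcd4 and 0.0583 for Mknk2.

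Of 38 initiation factors 2 (5.26%) were higher and 0 lower, against 2.36% and 1.52% of all genes. They were Eif4e and Eif3a, the largest subunit of eIF3 (1.68). Of 15 elongation and termination factors 1 was higher, Etf1, the release factor that reads stop codons (1.37). No gene was called among the 21 aminoacyl-tRNA synthetases, which charge tRNAs and had a median of 0.30. Cytosolic ribosomal proteins had 12 of the 23 measured (52.2%) below the cytosolic arrays on both polysome arrays and 3 (13%) above, against 28.1% and 17.2% of all genes, and the median was -0.26, or 0.041 after cyclic loess. Rpl13a, a protein of the large subunit whose mRNA starts with a terminal oligopyrimidine tract, read 11.03 and 10.84 on the polysome arrays, against 12.04 and 12.14 on the cytosolic arrays (-1.16, adjusted p = 0.0119). Rps27l, a paralog of Rps27 that can share sequence with it, read 7.87 and 7.77 on the polysome arrays, against 9.22 and 9.77 on the cytosolic arrays (-1.68). These were the 2 ribosomal protein genes called. Among the genes not stable, calls ended without array 10, 11 or 12 for Eif4e (adjusted p up to 0.135), without array 9 or 12 for Mknk2 (adjusted p up to 0.0826) and without array 9, 10, 11 or 12 for Eif3a (adjusted p up to 0.148). They also ended without array 9, 10 or 12 for Etf1 (adjusted p up to 0.216) and without array 12 for Rpl13a (adjusted p up to 0.0525).

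Ribosome biogenesis genes, which make and assemble ribosomal RNA in the nucleolus, had 5 of 57 called higher (8.77%, against 2.36% of all genes) and 0 lower. On both polysome arrays 30 (52.6%) lay above the cytosolic arrays and 9 (15.8%) below, against 17.2% and 28.1% of all genes. Ncl, nucleolin, one of the most abundant nucleolar proteins, read 11.58 and 11.91 on the polysome arrays, against 9.43 and 9.99 on the cytosolic arrays (2.04, adjusted p = 0.0118). Mphosph10, a component of the small subunit processome, read 8.44 and 7.89 on the polysome arrays, against 6.36 and 5.93 on the cytosolic arrays (2.02), and Utp6 of the same complex had 7.26 and 7.01 in polysomes, against 5.10 and 5.86 in cytosolic mRNA (1.65). Both of these calls were stable. The other 2 were Wdr43 (1.27) and Nolc1 (0.97). With group weights 1 of the 5, Utp6, was called. The calls ended without array 9 or 12 for Ncl (adjusted p up to 0.0535), without array 9 or 12 for Wdr43 (adjusted p up to 0.154) and without array 9, 10, 11 or 12 for Nolc1 (adjusted p up to 0.145).

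Of 57 splicing factors 49 (86%) had a positive difference, against 40.5% of all genes. On both polysome arrays 31 (54.4%) lay above the cytosolic arrays and 4 (7.02%) below, against 17.2% and 28.1% of all genes, and 4 (7.02%) were called higher and 0 lower, where all genes gave 2.36% and 1.52%. Hnrnpr, a heterogeneous nuclear ribonucleoprotein, read 8.12 and 8.56 on the polysome arrays, against 6.46 and 5.57 on the cytosolic arrays (2.32, adjusted p = 0.00785), and its call was stable. Hnrnph1 (1.55), the serine and arginine rich factor Srsf3 (1.58) and the Sm core protein Snrpd3 (1.11) were the others. Of 45 mRNA decay genes 4 were higher: Pum2, which binds Pumilio elements and recruits deadenylases, with 9.58 and 8.19 in polysomes, against 6.80 and 6.07 in cytosolic mRNA (2.45), the decapping enzyme Dcp2 with 7.86 and 8.03 in polysomes, against 5.93 and 5.43 in cytosolic mRNA (2.27), the nonsense-mediated decay kinase Smg1 (1.88) and the nuclear exonuclease Xrn2 (1.75). Zc3h12a, or regnase-1, an endonuclease that cleaves cytokine mRNAs, was lower (4.58 and 5.05 in polysomes, against 5.98 and 6.01 in the cytosol, -1.18). Nup54, of the central channel of the pore, was the only nuclear pore gene called (7.999 and 6.75 in polysomes, against 5.26 and 4.54 in the cytosol, 2.47), and 10 of 22 (45.5%) lay above on both polysome arrays. With group weights 1 splicing factor and 1 mRNA decay gene were called. Calls ended without array 10 or 11 for Pum2 (adjusted p up to 0.098), without array 11 or 12 for Dcp2 (adjusted p up to 0.0634) and without array 9, 10 or 11 for Zc3h12a (adjusted p up to 0.141). They also ended without array 10 or 11 for Nup54 (adjusted p up to 0.101), without array 9, 10, 11 or 12 for Srsf3 (adjusted p up to 0.0872) and without array 9, 10 or 12 for Hnrnph1 (adjusted p up to 0.154). For the remaining 3 they ended without array 9, 10, 11 or 12 for Snrpd3 (adjusted p up to 0.163), without array 10, 11 or 12 for Smg1 (adjusted p up to 0.147) and without array 9, 10, 11 or 12 for Xrn2 (adjusted p up to 0.116).

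In the lists of cell division genes 6.45% to 13.8% of members were called higher, against 2.36% of all genes, and the difference was not tested. The mitosis list (65 genes) had 9 called higher (13.8%) and 0 lower, and 3 of the calls were stable. Mis12, a subunit of the kinetochore that joins chromosomes to microtubules, read 7.81 and 7.03 on the polysome arrays, against 4.90 and 3.998 on the cytosolic arrays (2.97, adjusted p = 0.00682). Melk, a kinase of mitotic cells, read 7.88 and 8.87 on the polysome arrays, against 6.31 and 5.87 on the cytosolic arrays (2.28). Knl1, the kinetochore scaffold of the spindle checkpoint, read 5.55 and 5.87 on the polysome arrays, against 4.07 and 4.19 on the cytosolic arrays (1.58). In all 3 the fractions were apart by more than their own spread. Well-known proliferation genes of the same list, Mki67, Cdk1 and Ccna2, did not pass: Mki67 differed by 0.11 (adjusted p = 0.938), Cdk1 by 0.30 (adjusted p = 0.808) and Ccna2 by 1.24 (adjusted p = 0.199).

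Of 36 genes of cohesin, condensin and the anaphase-promoting complex 11 were over 3-fold higher and 0 over 3-fold lower, against 3.51% and 1.57% of all genes. Limma called 4 higher: Esco1, an acetyltransferase that establishes cohesion, with 7.53 and 7.50 in polysomes, against 3.94 and 4.05 in cytosolic mRNA (3.52, adjusted p = 0.00153), Stag1, a subunit of cohesin, with 6.41 and 6.33 in polysomes, against 4.47 and 4.98 in cytosolic mRNA (1.64), Ncapg2 and Smc6 (1.25). Esco1 and Stag1 were stable. Anapc5 was the 1 gene called lower (-1.21), and Anapc4, another subunit of the anaphase-promoting complex, read 7.95 and 9.09 on the polysome arrays, against 6.71 and 7.54 on the cytosolic arrays (1.39, adjusted p = 0.0582). Among 30 centromere proteins and mitotic kinesins 3 were higher, of which Kif23, a motor of the central spindle, was stable (6.82 and 7.27 in polysomes, against 4.60 and 4.56 in the cytosol, 2.47). The others were Kif20a (2.10) and Cenpe (2.33). Of 42 centrosome genes 4, Cep55, Cep57, Cep76 and Haus1, were higher, by 1.19 to 1.96. Calls were lost without array 10, 11 or 12 for Smc6 (adjusted p up to 0.108), without array 9, 10 or 11 for Anapc5 (adjusted p up to 0.177, difference -0.76 without array 10) and without array 9, 10, 11 or 12 for Kif20a (adjusted p up to 0.192). They were also lost without array 9, 11 or 12 for Cenpe (adjusted p up to 0.1), without array 11 for Cep76 (adjusted p up to 0.0627) and without array 9, 11 or 12 for Haus1 (adjusted p up to 0.118). The same held without array 12 for Cep55 (adjusted p up to 0.0587) and without array 9, 10, 11 or 12 for Cep57 (adjusted p up to 0.208). With group weights 1 of the 4 centrosome genes was called.

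DNA replication (62 genes) had 4 called higher and 0 lower: Topbp1, Mcm8, a helicase of recombination (1.94), and the origin recognition subunits Orc4 (1.91) and Orc1 (1.46). Of 70 repair genes, with median levels of 6.25 in polysomes and 5.90 in the cytosol, 5 (7.14%) were higher and 0 lower. Of all genes 2.36% were higher, and of those at mean levels of 5.55 to 7.36 5.43%. Blm, a RecQ helicase, read 7.56 and 6.43 on the polysome arrays, against 4.55 and 4.28 on the cytosolic arrays (2.58), and Chek1, the checkpoint kinase that acts below ATR, read 5.88 and 5.43 on the polysome arrays, against 3.77 and 3.68 on the cytosolic arrays (1.92). Both were stable. Xpa of nucleotide excision repair (3.11), Brca2 (2.49) of homologous recombination and Atm (1.17), the kinase activated by double-strand breaks, were not. The threshold was missed without array 9, 10, 11 or 12 for Xpa (adjusted p up to 0.125), without array 10 or 11 for Brca2 (adjusted p up to 0.192) and without array 9, 10 or 11 for Atm (adjusted p up to 0.174). It was also missed without array 9 or 10 for Mcm8 (adjusted p up to 0.0929, difference 1.22 without array 9), without array 9 or 10 for Orc4 (adjusted p up to 0.119) and without array 9, 10 or 11 for Orc1 (adjusted p up to 0.2, difference 0.90 without array 10).

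The cyclin and CDK list went both ways. E2f1, the transcription factor that starts the S phase program, was lower in polysomes, with 6.98 and 7.07 on the polysome arrays, against 9.12 and 8.71 on the cytosolic arrays (-1.89, adjusted p = 0.00194), and its relative E2f8, which represses the same targets, was higher with 8.58 and 8.42 in polysomes, against 6.63 and 7.001 in cytosolic mRNA (1.68). Ccnc, cyclin C of the Mediator kinase module, was higher with 4.34 and 4.74 in polysomes, against 2.92 and 2.90 in cytosolic mRNA (at least 1.62, since the cytosolic values were at background). Cdk6, the G1 kinase, had 8.90 and 8.03 in polysomes, against 7.08 and 4.96 in cytosolic mRNA (2.45), and Lin9 of the DREAM complex differed by 1.89. The cyclins Ccnd3 and Ccne1 of G1 and S phase did not pass the test: Ccnd3 read 9.61 and 9.26 on the polysome arrays, against 10.01 and 8.15 on the cytosolic arrays (0.36, adjusted p = 0.769) and Ccne1 9.39 and 9.70 on the polysome arrays, against 9.15 and 9.41 on the cytosolic arrays (0.27, adjusted p = 0.693). The inhibitor Cdkn1b differed by 1.29 (adjusted p = 0.212), and the value moved with the array left out: it was 0.44 without array 10 and 2.13 without array 12. Calls of E2f1 and Ccnc were stable, and others ended without array 9, 10, 11 or 12 for E2f8 (adjusted p up to 0.0943), without array 10, 11 or 12 for Cdk6 (adjusted p up to 0.177, difference 1.39 without array 11) and without array 9, 10 or 12 for Lin9 (adjusted p up to 0.146, difference 1.07 without array 9). Histones, whose mRNAs are made in S phase and mostly lack a poly(A) tail, had 1 of 25 genes called, H3c15, which was lower (2.54 and 2.38 in polysomes, against 3.85 and 6.22 in the cytosol, -2.57). That call ended without array 10, 11 or 12 (adjusted p up to 0.147, difference -1.39 without array 11).

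Of 40 chromatin remodelers 5 (12.5%) were higher and 1 lower, against 2.36% and 1.52% of all genes. Atrx, a remodeler that deposits histone H3.3, read 7.78 and 7.98 on the polysome arrays, against 4.87 and 4.48 on the cytosolic arrays (3.21, adjusted p = 0.00111). Chd3, an ATPase of the NuRD complex, was the 1 lower, with 4.54 and 5.94 on the polysome arrays, against 7.88 and 7.38 on the cytosolic arrays (-2.39). Both calls were stable. Baz1a (2.66), Chd2 (2.53), Arid4a (2.12) and Baz1b (1.25) were the other 4. Among 62 histone-modifying enzymes, Kdm5a, a demethylase of H3 lysine 4, was the only 1 called (1.61%, 5.60 and 5.66 in polysomes, against 3.89 and 3.92 in the cytosol, 1.73), and its call was stable.

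The list of Mediator and general transcription factors held 5 higher (8.06%) and 1 lower of 62, and with group weights 1 and 0. Taf1b, a subunit of the RNA polymerase I initiation factor SL1, read 7.33 and 7.22 on the polysome arrays, against 3.19 and 3.74 on the cytosolic arrays (3.81, SE 0.29, adjusted p = 0.000147), with a stable call. Taf1, the largest subunit of TFIID (2.94), Taf2 (1.95), Taf4b (1.46) and Med14 (1.44) followed, and Med9 was lower (6.81 and 7.05 in polysomes, against 8.59 and 8.04 in the cytosol, -1.39). The 312 numbered zinc finger genes, most of them of the KRAB family that silences transposons, were close to all genes, with a median of -0.06, 11 higher (3.53%) and 5 lower (1.6%). The 3 with a stable call were Zfp770 (5.39 and 6.01 in polysomes, against 3.57 and 3.37 in the cytosol, 2.23), Zfp24 (1.53) and Zkscan1 (1.19), all higher, and the 5 lower were Zfp687, Zfp763, Zfp975, Zfp219 and Zfp202 (-2.16 to -0.96). Significance was lost without array 10, 11 or 12 for Baz1a (adjusted p up to 0.0751), without array 9, 10 or 11 for Chd2 (adjusted p up to 0.11) and without array 12 for Arid4a (adjusted p up to 0.0524). It was also lost without array 9, 10 or 12 for Taf1 (adjusted p up to 0.181), without array 11 or 12 for Taf2 (adjusted p up to 0.167) and without array 9 or 10 for Med9 (adjusted p up to 0.058). The same held without array 9, 10, 11 or 12 for Baz1b (adjusted p up to 0.179), without array 9, 10, 11 or 12 for Taf4b (adjusted p up to 0.0936) and without array 9, 11 or 12 for Med14 (adjusted p up to 0.17, difference 0.94 without array 12).

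Ubiquitin enzymes included some of the largest differences. The 4 genes called among 74 cullins, SKP and F-box proteins were all higher and all stable, also with group weights. Besides Cul4b they were Fbxw7, the F-box protein that marks Myc and cyclin E for breakdown, with 6.44 and 7.93 in polysomes, against 4.30 and 4.66 in cytosolic mRNA (2.71), Skp2, which marks p27, with 5.87 and 6.24 in polysomes, against 3.65 and 4.38 in cytosolic mRNA (2.04), and Fbxo28 with 6.54 and 6.68 in polysomes, against 4.89 and 5.30 in cytosolic mRNA (1.52). The list as a whole had a median of 0.003 and a share called higher of 5.41%, against 2.36% of all genes. Its median levels were 5.89 in polysomes and 5.42 in the cytosol. Of all genes at mean levels of 5.55 to 7.36 5.43% were higher, about the share of this list. Of 56 deubiquitinases 6 (10.7%) were higher and 1, Usp28, lower (-1.42), against 2.36% and 1.52% of all genes. With group weights 2 of the deubiquitinases were called higher and 0 lower. The call of Usp28 ended without array 9, 10 or 11 (adjusted p up to 0.175, difference -0.86 without array 10). Usp9x, an X-linked enzyme that stabilizes many proteins, read 6.90 and 7.34 on the polysome arrays, against 3.64 and 3.67 on the cytosolic arrays (3.46, adjusted p = 0.00594), and Usp48 had 7.15 and 6.93 in polysomes, against 5.74 and 4.94 in cytosolic mRNA (1.70). Those 2 calls were stable, whereas that of Usp38 (2.77) ended without array 9 or 10 (adjusted p up to 0.074) and that of Usp15 (2.64) without array 9, 10 or 12 (adjusted p up to 0.0842).

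Of 25 ubiquitin E2 enzymes 1 was higher, Ube2b, which acts in DNA damage tolerance (1.82), and of 116 RING and tripartite motif ligases 1, Rnf170 (1.63), a share of 0.862% and thus below that of all genes. Proteasome subunits gave 1 gene in each direction. Psmb10, a catalytic subunit of the immunoproteasome, was lower with 9.10 and 9.20 on the polysome arrays, against 10.78 and 10.63 on the cytosolic arrays (-1.55, adjusted p = 0.00813) and stable, and Psmd11 of the regulatory particle was higher (1.57). Calls ended without array 9, 11 or 12 for Ube2b (adjusted p up to 0.0911), without array 12 for Rnf170 (adjusted p up to 0.0526) and without array 9, 10 or 11 for Psmd11 (adjusted p up to 0.1).

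Called higher were 9.09% of T cell transcription factors, 7.14% of T cell receptor signalling genes and 2.63% of cytokine receptor and JAK-STAT genes. Costimulatory and TNF family genes had 3.85%, cytokines 3.45%, chemokine receptor and homing genes 0% and all genes 2.36%. Median levels of the transcription factors were 6.84 in polysomes and 6.08 in the cytosol. Of all genes at mean levels of 5.55 to 7.36 5.43% were higher. With group weights 1 transcription factor, 2 receptor signalling genes and 0 cytokine receptor genes were called higher. Il2ra, the high-affinity chain of the IL-2 receptor, read 9.55 and 9.75 on the polysome arrays, against 7.78 and 8.36 on the cytosolic arrays (1.58, SE 0.29, adjusted p = 0.0165), and it was the only 1 called of 38 cytokine receptor and JAK-STAT genes. Its ligand Il2 read 11.88 and 12.07 on the polysome arrays, against 10.20 and 11.39 on the cytosolic arrays (1.18, adjusted p = 0.447), so the fractions did not overlap but the gene did not pass. Ifng read 10.58 and 11.21 on the polysome arrays, against 10.82 and 11.24 on the cytosolic arrays (-0.13, adjusted p = 0.97). Il3, a hematopoietic growth factor that T cells release, was higher with 9.29 and 8.78 in polysomes, against 7.94 and 6.08 in cytosolic mRNA (2.02) and Il17a, the hallmark cytokine of Th17 cells, lower with 4.26 and 4.55 in polysomes, against 6.23 and 5.83 in cytosolic mRNA (-1.63), the only 2 called of 29 cytokines. Calls were lost without array 9 or 12 for Il2ra (adjusted p up to 0.0713), without array 10, 11 or 12 for Il3 (adjusted p up to 0.158, difference 1.09 without array 11) and without array 9, 10, 11 or 12 for Il17a (adjusted p up to 0.129).

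Signalling below the T cell receptor gave 3 higher and 0 lower of 42 genes. They were Ppp3r1, the regulatory subunit of calcineurin (7.98 and 9.002 in polysomes, against 5.77 and 6.29 in the cytosol, 2.46), Rasgrp1, which activates Ras (7.21 and 8.10 in polysomes, against 5.68 and 5.74 in the cytosol, 1.94), and Nfatc3 (1.34), a factor that calcineurin dephosphorylates. The threshold was missed without array 9, 11 or 12 for Ppp3r1 (adjusted p up to 0.128), without array 9, 11 or 12 for Rasgrp1 (adjusted p up to 0.133) and without array 9, 10, 11 or 12 for Nfatc3 (adjusted p up to 0.174). Of 26 costimulatory and inhibitory receptors and TNF family members Tnfsf8, the CD30 ligand, was the only 1 called (7.94 and 7.46 in polysomes, against 6.53 and 5.40 in the cytosol, 1.74). Ctla4, an inhibitory receptor, had 5.94 and 7.69 in polysomes, against 7.44 and 5.98 in cytosolic mRNA (0.10, adjusted p = 0.954), and Tnfrsf18, known as GITR, had 11.76 and 11.46 in polysomes, against 12.05 and 11.73 in cytosolic mRNA (-0.28, adjusted p = 0.594). The call of Tnfsf8 ended without array 10 or 11 (adjusted p up to 0.105), and with group weights its adjusted p was 0.0639. The arrays of Ctla4 overlapped between fractions.

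Of 33 T cell transcription factors 3 were higher, Hif1a, the hypoxia factor (10.21 and 9.44 in polysomes, against 8.39 and 7.53 in the cytosol, 1.86), Foxp1, a factor of quiescence (1.56), and Ets1, which T cell differentiation needs (8.57 and 8.49 in polysomes, against 7.30 and 6.67 in the cytosol, 1.54). Ikzf4, or Eos, a partner of Foxp3, was lower with 3.92 and 3.98 on the polysome arrays, against 5.43 and 5.39 on the cytosolic arrays (-1.46, adjusted p = 0.0108), with a stable call. Foxo3, which opposes T cell proliferation, had 6.44 and 8.87 in polysomes, against 6.64 and 8.65 in cytosolic mRNA (0.01, adjusted p = 0.994), so that its 2 arrays differed more within a fraction than between fractions. Foxp3 differed by 0.49 (adjusted p = 0.681), and its arrays overlapped. Significance was lost without array 10 or 11 for Hif1a (adjusted p up to 0.18), without array 11 or 12 for Foxp1 (adjusted p up to 0.162) and without array 11 for Ets1 (adjusted p up to 0.0564).

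The immediate early, NR4A, NF-kB and Myc genes, which encode short-lived regulators induced within minutes to hours of stimulation, had a median of -0.39, or -0.22 after cyclic loess. Of 40 genes 17 (42.5%) were below the cytosolic arrays on both polysome arrays and 3 (7.5%) above, against 28.1% and 17.2% of all genes. Only Nfkbiz, a nuclear IkB protein, passed the test (3.94 and 3.63 in polysomes, against 5.26 and 5.42 in the cytosol, -1.56), and its call ended without array 9, 11 or 12 (adjusted p up to 0.0964). Jund, an AP-1 subunit, had 11.51 and 11.21 in polysomes, against 12.17 and 12.06 in cytosolic mRNA (-0.75, adjusted p = 0.0572), and Ier2 7.28 and 7.40 in polysomes, against 9.30 and 8.25 in cytosolic mRNA (-1.44, adjusted p = 0.0602). Myc, a driver of T cell growth, had 12.34 and 12.41 in polysomes, against 12.05 and 11.57 in cytosolic mRNA (0.56, adjusted p = 0.469), a difference of the opposite sign.

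Of 40 interferon response genes Iigp1, a GTPase of cell-autonomous immunity, was higher (8.50 and 7.47 in polysomes, against 5.49 and 5.61 in the cytosol, 2.43) and Psmb10 lower, and the call of Iigp1 ended without array 9, 10 or 11 (adjusted p up to 0.0791). Chemokine receptor and homing genes (25) and BCL-2 family and caspase genes (30) had none called. Of 45 PI3K, AKT and mTOR genes only Akt1s1, which encodes the mTORC1 inhibitor PRAS40, was called, and lower (5.53 and 5.65 in polysomes, against 6.21 and 6.57 in the cytosol, -0.80), a call that ended without array 10, 11 or 12 (adjusted p up to 0.193). Mtor itself differed by -0.39 (adjusted p = 0.439).

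Genes of the mitochondrial respiratory chain, import machinery and ribosome had negative medians. Of 71 oxidative phosphorylation genes 7 (9.86%) were lower and 0 higher, against 1.52% and 2.36% of all genes, and 33 (46.5%) lay below the cytosolic arrays on both polysome arrays and 12 (16.9%) above, where all genes gave 28.1% and 17.2%. Ndufv3, an accessory subunit of complex I, read 10.85 and 10.61 on the polysome arrays, against 12.50 and 12.15 on the cytosolic arrays (-1.59, adjusted p = 0.00606). Ndufb9, another one, read 10.82 and 10.61 on the polysome arrays, against 12.35 and 12.05 on the cytosolic arrays (-1.48). Both were stable. Ndufa3 (-1.07) and Cox6c (-0.90), a subunit of complex IV, were also lower, and their calls ended without array 9, 11 or 12 for Ndufa3 (adjusted p up to 0.118) and without array 9, 11 or 12 for Cox6c (adjusted p up to 0.1). After cyclic loess 2 of the 71 genes and with group weights 2 were called lower. The class median of -0.30 was -0.065 after cyclic loess, so its size depends on the scaling.

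Mitochondrial import genes had 4 of 21 called lower (19%) and 0 higher, against 1.52% and 2.36% of all genes. On both polysome arrays 13 (61.9%) lay below, against 28.1% of all genes. With group weights 1 was called lower, after cyclic loess 1 and after centring 2. The 4 were Timm13, a small chaperone of the intermembrane space, with 10.56 and 10.03 on the polysome arrays, against 11.78 and 11.76 on the cytosolic arrays (-1.48, adjusted p = 0.00606), its partner family member Timm8b (-1.13), the carrier translocase Timm22 (-1.01) and the outer membrane subunit Tomm6 (-1.23). Timm13 alone was stable, and the other calls ended without array 9, 11 or 12 for Timm8b (adjusted p up to 0.191), without array 10, 11 or 12 for Timm22 (adjusted p up to 0.187) and without array 11 or 12 for Tomm6 (adjusted p up to 0.136). Of 71 mitochondrial ribosomal proteins 2 (2.82%) were lower, Mrps24, with 9.90 and 9.66 on the polysome arrays, against 11.58 and 11.37 on the cytosolic arrays (-1.70) and stable, and Mrpl33 (-1.30). That list had 29 members (40.8%) below and 12 (16.9%) above on both polysome arrays, the second share close to the 17.2% of all genes, and its median of -0.29 was -0.11 after cyclic loess, which called 1 gene. The call of Mrpl33 ended without array 9, 10, 11 or 12 (adjusted p up to 0.178).

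The 24 citric acid cycle genes had a median of 0.39, with 12 (50%) above the cytosolic arrays on both polysome arrays and 2 (8.33%) below, against 17.2% and 28.1% of all genes, and 0 were called. Glucose uptake and glycolysis genes (17) had a median of -0.11, as all genes had, and 0 were called. After cyclic loess their median was 0.17, against 0.007 for all genes, and 1 gene was called higher. In nucleotide synthesis Prps2, which makes the ribose donor PRPP, was higher (7.41 and 7.52 in polysomes, against 5.77 and 5.76 in the cytosol, 1.70). Its call was stable, but with group weights its limma adjusted p was 0.162. Pnp was higher (1.24) and Dctpp1, which cleaves dCTP, lower (11.52 and 11.24 in polysomes, against 12.50 and 12.56 in the cytosol, -1.15). Mthfd2 of the mitochondrial one-carbon pathway was higher (9.65 and 10.15 in polysomes, against 8.84 and 8.53 in the cytosol, 1.22). Srebf1, the sterol and lipid regulator, was lower (5.92 and 6.45 in polysomes, against 7.61 and 7.12 in the cytosol, -1.18). Calls ended without array 9, 11 or 12 for Pnp (adjusted p up to 0.0791), without array 9, 10, 11 or 12 for Dctpp1 (adjusted p up to 0.134) and without array 11 or 12 for Mthfd2 (adjusted p up to 0.137), and that of Srebf1 without array 9 or 10 (adjusted p up to 0.161).

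In cAMP and PKA signalling 4 of 30 genes (13.3%) were higher and 0 lower, against 2.36% and 1.52% of all genes. The PKA inhibitor Pkig, which the list does not hold, had the largest difference of all named genes toward the cytosol. Prkacb, a catalytic subunit of PKA, read 8.70 and 7.42 on the polysome arrays, against 5.33 and 5.12 on the cytosolic arrays (2.84, SE 0.47, adjusted p = 0.0113), and its call was stable. The phosphodiesterase Pde7a (2.19), which breaks down cAMP, and the anchoring proteins Akap8 (2.04) and Akap13 (1.17) were the other 3. Calls were lost without array 10, 11 or 12 for Pde7a (adjusted p up to 0.145), without array 9 or 12 for Akap8 (adjusted p up to 0.1) and without array 9 or 12 for Akap13 (adjusted p up to 0.0875).

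Of 16 mRNAs with a textbook switch of translation 1 (6.25%) was higher and 2 (12.5%) lower, against 2.36% and 1.52% of all genes. In this short list 10 (62.5%) had a positive difference, against 40.5% of all genes, and the median was 0.28. Hif1a, described above, was the 1 higher (1.86), and Nap1l1, a histone chaperone whose mRNA starts with a terminal oligopyrimidine tract, had 10.30 and 10.52 in polysomes, against 9.05 and 9.21 in cytosolic mRNA (1.28, adjusted p = 0.132). On both polysome arrays 7 of the 16 (43.8%) lay above and 3 (18.8%) below, against 17.2% and 28.1% of all genes. Oaz1, the antizyme that polyamines induce by frameshifting, was lower with 10.48 and 10.26 on the polysome arrays, against 11.63 and 12.11 on the cytosolic arrays (-1.50, adjusted p = 0.00573) and stable. Fth1, ferritin heavy chain, whose iron responsive element blocks initiation when iron is low, was lower with 7.62 and 6.75 in polysomes, against 9.02 and 9.38 in cytosolic mRNA (-2.02), and its call ended without array 9, 11 or 12 (adjusted p up to 0.162). Odc1, the target of antizyme, had 9.10 and 10.02 in polysomes, against 9.97 and 10.68 in cytosolic mRNA (-0.76, adjusted p = 0.303). Atf4, which stress induces through upstream reading frames, had 10.84 and 9.66 in polysomes, against 10.84 and 10.45 in cytosolic mRNA (-0.40, adjusted p = 0.708), and Ddit3, also known as CHOP, 6.34 and 6.43 in polysomes, against 8.24 and 7.76 in cytosolic mRNA (-1.62, adjusted p = 0.0673).

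RNAs that encode no long protein had the lowest class median. Of 10 snoRNA host genes and long noncoding RNAs 3 were lower and 0 higher, and 1 (10%) had a positive difference, against 40.5% of all genes. With group weights 1 and after cyclic loess 2 were called lower. Snhg10 read 5.05 and 5.19 on the polysome arrays, against 7.48 and 7.26 on the cytosolic arrays (-2.25, adjusted p = 0.00594), with a stable call. Snhg16 had 5.92 and 5.81 in polysomes, against 7.58 and 6.90 in cytosolic mRNA (-1.38) and Gas5, a host of several snoRNAs whose spliced RNA is a nonsense-mediated decay target, 9.09 and 8.82 in polysomes, against 9.70 and 10.20 in cytosolic mRNA (-0.997). These 2 calls ended without array 9, 10 or 12 for Snhg16 (adjusted p up to 0.0725) and without array 10, 11 or 12 for Gas5 (adjusted p up to 0.13).

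Of 72 chaperone genes 3 (4.17%) were higher and 0 lower, against 2.36% and 1.52% of all genes. Their median levels were 6.34 in polysomes and 6.08 in the cytosol, and of all genes at mean levels of 5.55 to 7.36 5.43% were higher. Cct8, a subunit of the TRiC chaperonin that folds actin and tubulin, read 11.63 and 11.55 on the polysome arrays, against 9.27 and 10.08 on the cytosolic arrays (1.92, adjusted p = 0.00732), and its call was stable. Of 117 vesicle traffic genes, with median levels of 6.45 in polysomes and 6.13 in the cytosol, 5 (4.27%) were higher and 0 lower. The shares of both lists were thus below that 5.43%. Besides Vps35 the 5 vesicle traffic genes were Sec22b (1.80), Sec24b (1.53), Rab1a (1.28) and Vps13b (1.17). The threshold was missed without array 10, 11 or 12 for Sec22b (adjusted p up to 0.194) and without array 9, 10, 11 or 12 for Sec24b (adjusted p up to 0.1). It was also missed without array 9, 10 or 11 for Rab1a (adjusted p up to 0.203) and without array 9, 10, 11 or 12 for Vps13b (adjusted p up to 0.142). With group weights 1 gene of each of these lists was called. Genes of translocation, signal peptidase and glycosylation in the endoplasmic reticulum (38) had 0 called.

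Called genes differed in the span of the gene on the chromosome, which the RefSeq annotation gives for 15749 genes. The genes were put into 5 bins of about equal size by span. In bin 1, the shortest, up to 6.66 kb, 0.51% were higher and 2.76% lower in polysomes. In bin 4, 29.12 to 65.58 kb, 4.29% were higher and 0.92% lower, and in bin 5, the longest, 3.37% and 0.32%. The median difference was -0.24 in bin 1, -0.18 in bin 2, and -0.09, -0.0065 and -0.03 in the others, and bin 1 stayed the lowest on each polysome array and after centring or loess. After cyclic loess the medians were -0.10, -0.050, 0.035, 0.11 and 0.076 in the same order, so the sign of bins 3 to 5 depends on the scaling. Ex vivo Foxp3- cells had medians of -0.01 to 0.03 over the same bins. Span is not mRNA length, and short genes include many of the mitochondrial and ribosomal lists: the median span was 7.13 kb in oxidative phosphorylation and 6.53 kb in mitochondrial import, against 63.2 kb in chromatin remodelers and 21.2 kb overall. All genes of the span bins to which their members belong averaged medians of -0.19 and -0.19 for oxidative phosphorylation and mitochondrial import, and -0.05 for chromatin remodelers, less far from that of all genes than the class medians of -0.30, -0.54 and 0.28. After cyclic loess the median of oxidative phosphorylation was -0.065, between those of bins 1 and 2. The share of G and C bases from 250 bases before to 50 after the gene start gave medians of -0.14 to -0.08 over its 5 bins. Calls rose in both directions, with 1.13% higher and 0.81% lower in the lowest bin and 3.57% and 2.10% in the highest. Level also moved with the calls: 3 of 3295 genes were called higher in the lowest of 5 bins of mean level and 179 in bin 4.

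**Figure D4:**
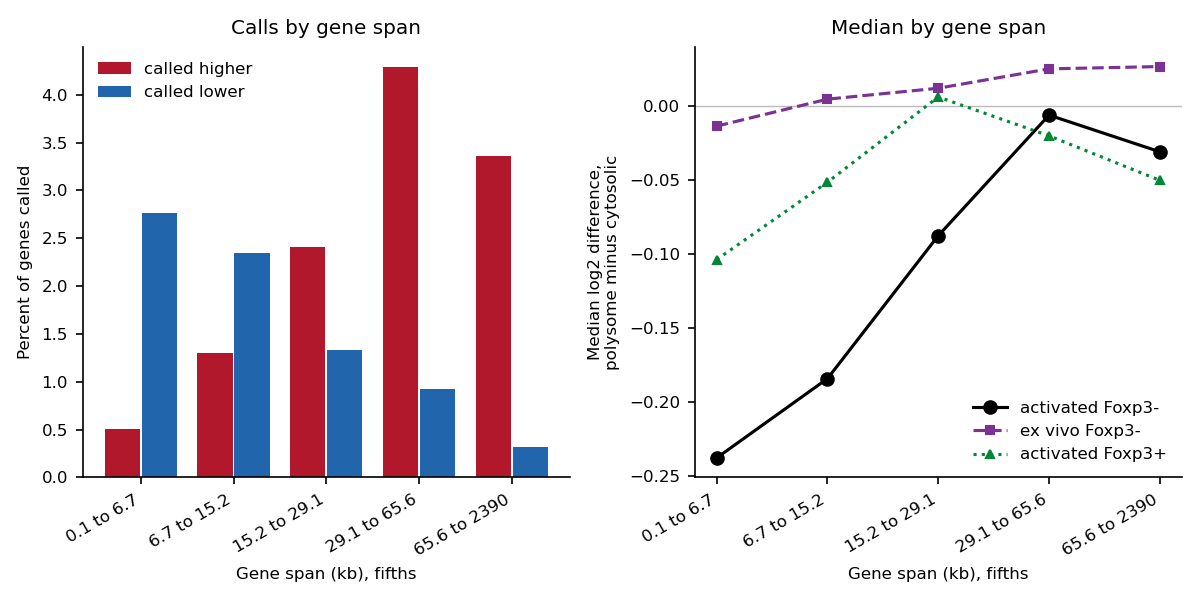
Genes in 5 bins of gene span (kb, RefSeq). Left, percent of genes called higher (2.36 over all genes) and lower (1.52) in polysomes of activated Foxp3- cells; right, median log2 difference, polysome minus cytosolic, in activated Foxp3- (black), ex vivo Foxp3- (squares) and activated Foxp3+ cells (triangles). Calls for higher genes are most frequent in bin 4 and calls for lower genes in bin 1.

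The difference was set against that of ex vivo Foxp3- cells, which asks whether the placement of an mRNA on polysomes changed with activation. By the contrast of both differences (limma, adjusted p under 0.05) 15 genes (0.091%) gave a higher and 11 (0.0668%) a lower difference after activation. Ex vivo, the genes called higher in activated cells had a median difference of 0.18 and those called lower -0.07. These genes were chosen by their differences on the activated arrays, so smaller medians ex vivo follow from that choice and do not measure a change. Only 5 genes were called in each direction ex vivo. Taf1b changed by 3.85 (SE 0.40, adjusted p = 0.00531), with a difference of 3.81 in activated and -0.04 in ex vivo cells. Cul4b had 4.46 activated and 0.35 ex vivo, Mettl14 3.71 activated and 0.07 ex vivo, and Mob1b 3.01 activated and -0.27 ex vivo. Atrx had 3.21 activated and 0.21 ex vivo, Zfp770 2.23 activated and 0.11 ex vivo, and Knl1 1.58 activated and -0.19 ex vivo. The ex vivo levels of Cul4b (3.60 in polysome and 3.26 in cytosolic RNA), Taf1b (3.41 and 3.44), Mob1b (3.16 and 3.43), Zfp770 (3.65 and 3.54) and Knl1 (2.49 and 2.69) were near those of the odorant and vomeronasal receptors, whose ex vivo medians were 3.04 in polysome and 3.04 in cytosolic RNA. A difference near 0 then follows from low signal and says nothing of their placement on polysomes ex vivo. Mettl14 (5.42 in polysome and 5.34 in cytosolic RNA) and Atrx (4.18 and 3.97) read further above that level. Rbm6, a splicing regulator (3.61 activated and -0.20 ex vivo), Dus4l (3.37 activated and 0.04 ex vivo) and Rif1, which acts in replication timing and repair (2.69 activated and 0.07 ex vivo), were named after their values were seen, and in ex vivo polysomes Rbm6 read 4.75, Dus4l 2.52 and Rif1 3.73, the last 2 also near background.

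For Isg20 and Cd27 the ex vivo difference was the larger one in size. Isg20, an interferon-induced exonuclease, had a difference of 1.14 in activated and -3.01 in ex vivo cells (change 4.15, adjusted p = 0.00531), and Cd27, a costimulatory receptor, had 1.53 activated and -2.30 ex vivo (change 3.83, adjusted p = 0.0418). Kctd2 fell in the contrast, with -2.82 activated and 0.15 ex vivo (change -2.96, adjusted p = 0.0418), and Khk, ketohexokinase, had -2.31 activated and -0.004 ex vivo. Hpx, Ttr and Apoc3, which encode plasma proteins made in the liver, were also called lower. Hpx had -0.30 activated and 4.02 ex vivo, Ttr 0.07 activated and 3.82 ex vivo, and Apoc3 -0.55 activated and 2.26 ex vivo, so the ex vivo differences were the large ones. In activated cells Hpx (3.04 in polysome and 3.35 in cytosolic RNA) and Ttr (3.33 and 3.26) were near background. For most genes named above the change was not called: it was 1.78 (adjusted p = 0.213) for Eif4e, 2.07 (adjusted p = 0.0851) for Il2ra and -1.28 (adjusted p = 0.174) for Ndufv3. The ex vivo samples were pools of 2 experiments, and cycloheximide was in their buffers. The gap between 3' and 5' control probe sets also differed: it was -0.20 to -0.36 for actin and 1.14 to 1.21 for Gapdh on the 4 activated arrays, against 0.82 to 1.38 for actin and 2.26 to 3.37 for Gapdh on the 4 ex vivo Foxp3- arrays, and its part in the contrast was not tested. State and array series cannot be told apart.

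**Figure D5:**
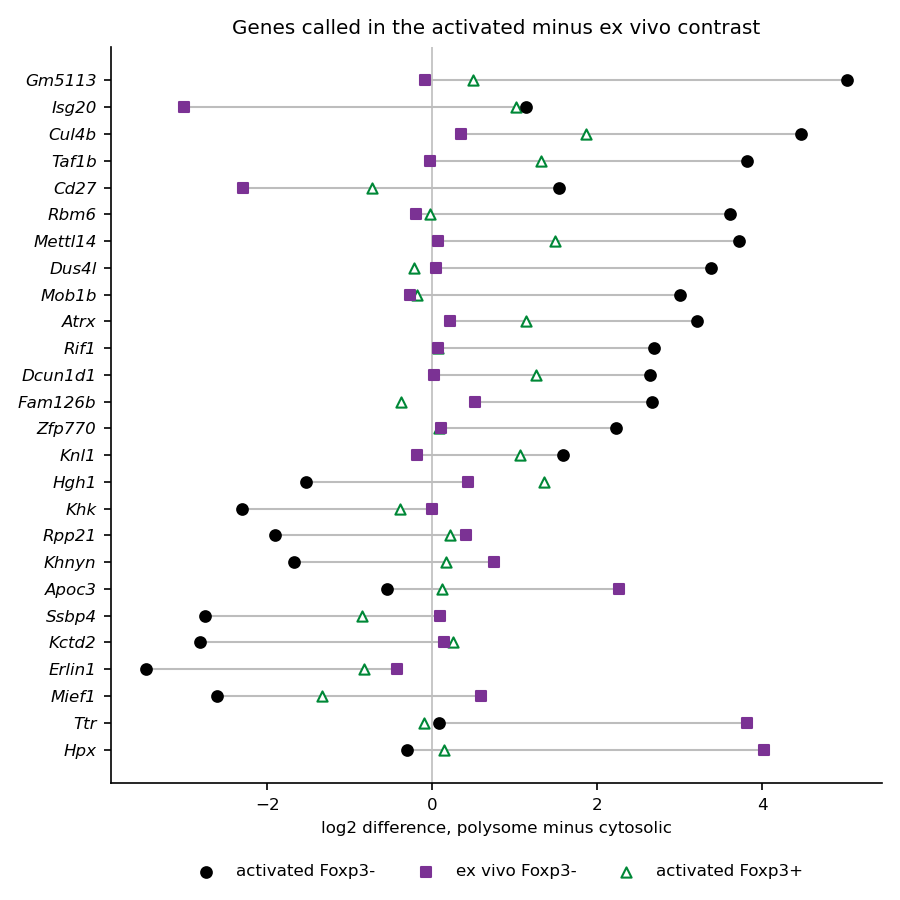
Log2 difference, polysome minus cytosolic, of the 26 genes called in the contrast of activated minus ex vivo Foxp3- cells, 1 row a gene, ordered by that contrast; black points are activated Foxp3- cells, squares ex vivo Foxp3- cells and triangles activated Foxp3+ cells, and lines join the first 2. For most genes the square lies near 0 and the black point far from it. Near background ex vivo were Gm5113 in the top row (2.86 in polysome and 2.96 in cytosolic RNA), Cul4b, Taf1b, Mob1b, Zfp770, Knl1, Dus4l, Rif1, Dcun1d1 and Fam126b. For Hpx, Ttr, Apoc3, Isg20 and Cd27 it is the square that lies far from 0.

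Some class medians differed between activated and ex vivo Foxp3- cells, and no test was run on them. Cohesin, condensin and anaphase-promoting complex genes had 0.77 in activated and 0.12 in ex vivo cells, splicing factors 0.57 activated and -0.04 ex vivo, ribosome biogenesis 0.54 activated and -0.02 ex vivo, and mitochondrial import -0.54 activated and 0.03 ex vivo. Cytosolic ribosomal proteins had -0.26 activated and -0.40 ex vivo, mitochondrial ribosomal proteins -0.29 activated and -0.29 ex vivo, and oxidative phosphorylation -0.30 activated and -0.17 ex vivo. The 3 last classes were thus negative in both states in the deposited values, and the first 3 were near 0 ex vivo.

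Against activated Foxp3+ cells, the contrast of both differences called 201 genes (1.22%) higher and 173 (1.05%) lower in Foxp3- cells. Subset and array series cannot be told apart, and with group weights 3 and 2 genes were called, with the 8 activated arrays alone 0. The genes called higher in polysomes of Foxp3- cells had a median difference of 0.11 in Foxp3+ cells, and those called lower -0.43. Here too the genes were chosen on the Foxp3- arrays, so smaller medians follow from that choice and do not measure a difference between subsets. Usp9x kept a difference of 2.18 in Foxp3+ cells, Cul4b 1.86, Hnrnpr 1.72 and Ets1 2.20, all positive as in Foxp3- cells. Pkig (-3.28), Selenow (-2.17), Mrps24 (-2.06) and Timm13 (-1.40) were negative there too. The sign was opposite for L3mbtl3, with 3.38 in Foxp3- and -3.12 in Foxp3+ cells (contrast 6.50, adjusted p = 0.00309), for Prkacb with 2.84 in Foxp3- and -2.36 in Foxp3+ cells (adjusted p = 0.00922), and for Gimap8 with 3.33 in Foxp3- and -2.56 in Foxp3+ cells (adjusted p = 0.0221). For Eif4e the differences were 1.68 in Foxp3- and -0.29 in Foxp3+ cells (contrast 1.96, adjusted p = 0.0763), and for Il2ra 1.58 in Foxp3- and -0.85 in Foxp3+ cells (contrast 2.43, adjusted p = 0.018).

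Markers of other cell types stayed low on the 4 arrays. The mean log2 level of 5 B cell markers was 3.79 and 3.65 in polysome and 4.24 and 4.35 in cytosolic RNA, that of 5 CD8 and NK cell markers 3.97 and 3.74 in polysome against 4.27 and 4.30 in cytosolic RNA, and that of 9 myeloid markers 4.36 and 4.06 in polysome against 4.12 and 4.28 in cytosolic RNA. The 6 stromal and endothelial markers had 3.70 and 4.09 in polysome and 4.31 and 4.18 in cytosolic RNA, and the 5 regulatory T cell markers, of which Ikzf4 was called lower, had 4.99 and 4.32 in polysome and 4.56 and 4.65 in cytosolic RNA. The 8 T cell markers averaged 9.66 and 9.32 in polysome RNA and 9.09 and 9.06 in cytosolic RNA. None of the markers of B, CD8, NK, myeloid, erythroid, stromal or endothelial cells was called. Lyz2, a myeloid gene, read 7.03 and 4.30 on the polysome arrays, against 4.81 and 5.28 on the cytosolic arrays. Lower on both polysome arrays were 4 of the 5 CD8 and NK cell markers, 3 of the 5 B cell markers and 5 of the 6 stromal and endothelial markers, where 28.1% of all genes were, and their part in the results was not tested.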

How the data were processed

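RNA of CD4+ T cells was measured on 16 arrays in 8 groups of 2. The deposited values are log2 intensities, which the authors summarized and normalized with RMA over probe sets redefined by Entrez gene, after amplification of the RNA; no source used here says whether all arrays went through RMA together. Normalization between arrays removes shifts common to all genes. Control probe sets were left out, which kept 16475 genes. A model with 1 mean per group was fitted with limma 3.58.1 in R 4.3.3 over all 16 arrays, so that all groups shared 1 estimate of the spread, with Benjamini-Hochberg adjustment over all genes. The contrasts were polysome minus cytosolic in activated Foxp3- cells, and its difference from ex vivo Foxp3- and from activated Foxp3+ cells. The model was run on simulated data in which all arrays shared 1 spread per gene. Such data cannot test it where groups differ in spread, as the group weights of these data do. Alternatives were subsets of the arrays, array weights, an intensity trend, a filter on low values, centring, cyclic loess and leaving out each of the 4 arrays.

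The named genes were the 12 largest called differences in each direction, the 4 or fewer members of each list lowest in adjusted p, members marked as key, and genes of the study's text. The largest were taken without predicted genes, among those with a mean over 8 in the higher fraction and arrays not overlapping between fractions. Outside this rule, named after their values were seen, are Nolc1, Xrn2, Anapc5, Lin9, Zfp687, Zfp763, Zfp975, Zfp219, Zfp202, Med14, Taf1, Baz1b, Chd2, Usp28, Rab1a, Hpx, Ttr, Apoc3, Rbm6, Rif1, Dus4l and Khk. Members and lists were chosen with earlier results of these data known. Protein length and composition were not analysed here, and gene span, mean level and promoter base content, chosen after seeing the data, were used in their place. RefSeq gave spans and symbols.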

Additional observations from a re-analysis of the deposited data

Results flagged for a closer look

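The difference between polysome-associated and cytosolic mRNA differed between activated and ex vivo Foxp3- cells for some named genes, by limma's test of the difference between differences. It was more positive in activated cells, in log2 units, for Isg20 (4.15), Cul4b (4.12), Taf1b (3.85), Cd27 (3.83), Rbm6 (3.81), Mettl14 (3.64), Dus4l (3.33), Mob1b (3.27), Atrx (2.99), Rif1 (2.62), Zfp770 (2.12) and Knl1 (1.77). It was more negative in activated cells for Hpx (-4.32), Ttr (-3.74), Kctd2 (-2.96), Apoc3 (-2.80) and Khk (-2.31).

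Between activated Foxp3- and activated Foxp3+ cells the same test passed for more of the named genes. The difference was more positive in Foxp3- cells, in log2 units, for L3mbtl3 (6.50), Gimap8 (5.89), Prkacb (5.19), Xpa (4.58), Topbp1 (3.77), Fbxw7 (3.75), Rbm6 (3.64), Cdk6 (3.62), Dus4l (3.60), Chd2 (3.37), Orc4 (3.37) and Mob1b (3.19). Further genes more positive in Foxp3- cells were Mis12 (3.18), Esco1 (3.18), Arid4a (3.06), Mphosph10 (2.98), Dcp2 (2.91), Tgs1 (2.81), Melk (2.67), Blm (2.67), Rif1 (2.63), Cul4b (2.60), Taf1b (2.50) and Pdcd4 (2.43). The list goes on with Il2ra (2.43), Kdm5a (2.35), Atm (2.32), Ube2b (2.29), Mettl14 (2.23), Zfp770 (2.14), Baz1b (2.12), Skp2 (2.11), Atrx (2.07), Ccnc (2.06), Ccne1 (1.96) and Cct8 (1.95). Last came Zkscan1 (1.82), Stag1 (1.81), Zfp24 (1.41) and Fbxo28 (1.40). It was more negative in Foxp3- cells for Snora65 (-4.05), Tnk2 (-3.15), Kctd2 (-3.07), Zfp763 (-2.77), Snhg10 (-2.58), Med9 (-2.06), Khk (-1.92), Zfp219 (-1.65) and Mknk2 (-1.53). State and subset each go with an array series of their own, and the calls between subsets fell to 3 and 2 genes with group weights.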

How the results depend on the processing

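The calls in activated Foxp3- cells depended on which arrays set the spread. Fitted on the 4 arrays or on the 8 activated arrays alone, 0 genes were called higher and 0 lower. With weights per array 150 were higher and 88 lower, and with weights per group 150 and 87. Among the 8237 genes above the median mean level, a smaller set than the 16475 of the main fit, 244 were higher. Leaving out each of the 4 arrays gave 219 to 306 genes higher and 165 to 258 lower. Cyclic loess gave 487 and 177, centring 420 and 200. Of the 154 named genes called, 76 kept the call with group weights, 138 after loess and 79 to 90 without 1 array, and none changed sign.

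Between activated and ex vivo Foxp3- cells the count of lower genes was 1 with the 8 Foxp3- arrays. Both kinds of weights gave 59 higher and 41 lower, the 8237 genes above the median mean 3 and 0, centring 3 lower and loess 32 higher. Leaving out 1 array gave 19 to 63 higher and 13 to 32 lower. Between activated subsets 0 and 0 were called with the 8 activated arrays, 3 and 2 with both kinds of weights and 111 lower with an intensity trend, against 151 to 220 higher and 114 to 246 lower without 1 array. Over 3-fold higher were 383 of the 8237 genes above the median mean level. Without 1 array 667 to 802 genes were over 3-fold higher and 330 to 549 lower.

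The median turned sign after loess for stress response genes (0.068) and cytosolic ribosomal proteins (0.041), and above the median mean level for stromal and endothelial markers (0.75). By gene span, bin 3 reached 0.035 after loess, and bin 5 reached 0.19 above the median mean level, 0.037 after centring and 0.076 after loess. The cause was not tested. No paired analysis was possible because the labels number the arrays 1 to 16 and no number is shared between groups. With 2 arrays a group the precision is limited by their number, and signal near background bounds low genes.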
